A study of Mus musculus with 24 samples.

Results

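The genes described here are the matrix metalloproteinases (Mmp), the Adamts proteinases, the Adamts-like proteins (Adamtsl) and the tissue inhibitors of metalloproteinases (Timp). They were chosen by their symbols (Mmp, Timp, Adamts or Adamtsl followed by a number), and 51 of the 55401 genes of the count table matched: 23 Mmp, 19 Adamts, 5 Adamtsl and 4 Timp genes on 18 chromosomes. Matrix metalloproteinases and Adamts enzymes are zinc-dependent endopeptidases that are made as inactive precursors, act in the extracellular space or on the cell surface, and cut collagens, proteoglycans, elastin, growth factors and one another. Timp proteins bind the active site of these enzymes and block it, and Adamts-like proteins share the accessory domains of Adamts enzymes but lack the protease domain. In the placenta and decidua these genes are known for the matrix turnover that goes with trophoblast invasion, vessel remodelling, fetal vessel growth and the preparation for birth.

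Bulk RNA-seq of poly(A) RNA was made from the maternal-fetal interface (MFI) of wild-type (WT) and C1qtnf6-KO (KO) mice on 4 gestation days (gd10.5, gd14.5, gd16.5, gd19.5), giving 3 libraries for each genotype at each stage and 24 in all. C1qtnf6 encodes CTRP6, a secreted protein made in the placenta, and the KO mice are homozygous for a CRISPR-Cas9 deletion of C1qtnf6 exons in every cell, so that effects in dam and fetus cannot be told apart. All mice were on a C57BL/6 background, the KO strain being C57BL/6JCya, and the sources used here give neither the age of the dams nor the dam, litter, fetal sex or sequencing batch of any library. The p-values below therefore measure only the spread between these libraries, which may in part be technical.

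Total counts per library were 20975717 to 37383108, with a median of 26046112, and 3 counts were treated as the detection limit. C1qtnf6 lay between 64.7 and 168 CPM (normalised counts-per-million) in the WT libraries and between 0.0340 and 2.05 CPM in the KO libraries, so the level of the deleted gene matched the label of each library. Some libraries stood apart in marker genes of particular cells. KO gd10.5 replicate 2 had a summed level of spongiotrophoblast and glycogen cell markers of 11948 CPM, against 1187 and 971 CPM in the other KO libraries and 1605 to 2218 CPM in WT of that stage. Its Y-linked genes summed to 71.0 CPM, against at most 0.311 CPM in the other gd10.5 libraries, and its decidual stroma markers were at 2271 CPM, against 3474 and 11131 CPM in the other KO libraries and 5880.1 to 13288 CPM in WT, so that 2 of the 3 KO libraries lay below the WT range. Yolk sac endoderm markers were at 4085 CPM in WT gd10.5 replicate 1 against 39.4 and 38.8 CPM in the other WT libraries of that stage, 1302 to 4083 CPM in KO gd10.5, 8215 CPM in WT gd16.5 replicate 1 and 7826 and 21875 CPM in KO gd16.5 replicates 1 and 2.

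Most members were measurable. In the fit of all 24 libraries 46 of the 51 members passed the expression filter. The 5 that did not were Adamts19 (0 to 4 counts per library), Adamts20 (0 to 9), Mmp20 (0 to 1), Mmp21 (0 to 5) and Mmp25 (0 to 10). On a scale of CPM per kilobase of exon, which allows levels of different genes to be compared, Timp2 had the highest mean over the 24 libraries at 37.6, which is the 93.7 percentile of all genes tested. Mmp15 followed at 31.1, Mmp14 at 21.8, Adamts2 at 20.2 and Mmp11 at 15.2 CPM per kilobase. Adamts1, Timp3 and Mmp28 had means of 14.6, 12.9 and 11.2 CPM per kilobase. The order of these means is a description over stages that differ, and their order differed between stages.

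The balance of the families shifted along gestation. The summed level of the Mmp genes in WT was 77.7 ± 7.05 CPM per kilobase at gd10.5, 137 ± 8.98 on gd14.5, 118 ± 26.1 on gd16.5 and 112 ± 3.68 on gd19.5 (SD, n = 3). The Adamts sum in WT was 104 ± 11.9 at gd10.5 and 50.7 ± 3.65, 55.0 ± 13.0 and 58.3 ± 5.70 at the later stages, with no overlap between gd10.5 and any later library. The Timp sum in WT went from 35.8 ± 5.07 and 31.9 ± 4.28 CPM per kilobase at gd10.5 and gd14.5 to 69.4 ± 9.17 on gd16.5 and 85.3 ± 2.49 on gd19.5. The ratio of the Mmp to the Timp sum in WT libraries was 1.80 to 2.80 at gd10.5, 3.97 to 4.56 on gd14.5, 1.58 to 1.85 on gd16.5 and 1.25 to 1.40 on gd19.5. The ratio was highest at gd14.5, and the KO libraries had the same order of stage means (2.72 ± 1.32, 3.98 ± 0.183, 1.40 ± 0.216 and 1.09 ± 0.0769). The ratio of RNA sums is a description and carries no test. The KO gd10.5 sums were the most scattered, since KO gd10.5 replicate 2 had an Adamts sum of 52.0 against 102 and 134 in the other KO libraries. The Adamtsl sum was small in every group, with group means of 5.37 to 7.39 CPM per kilobase.

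**Figure D1:**
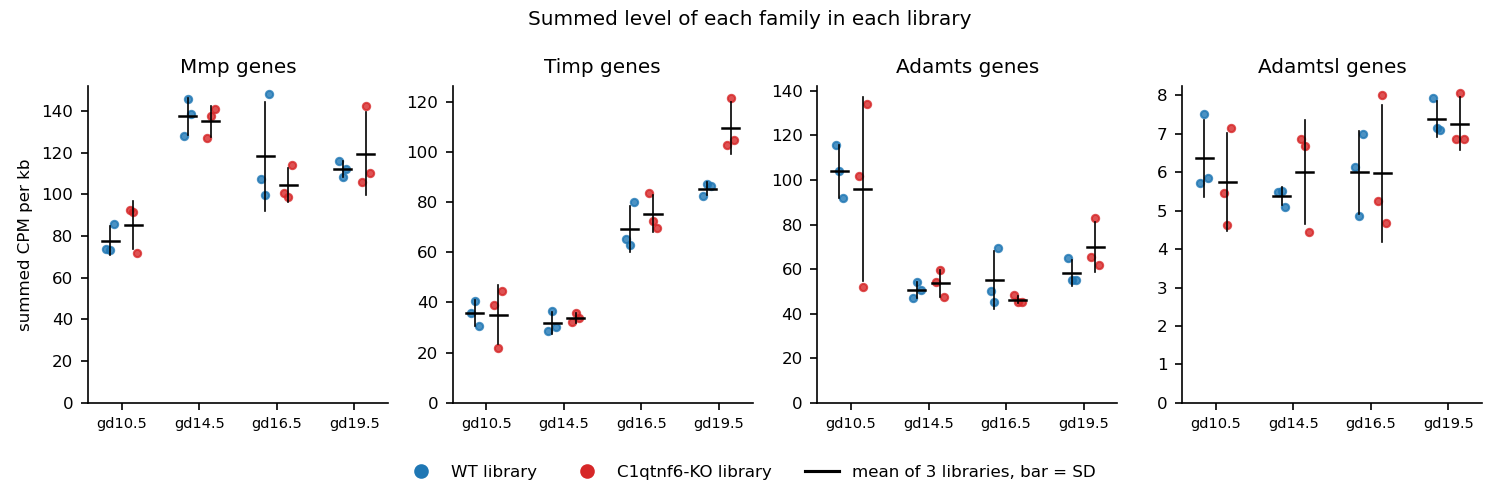
Summed level of each family (Mmp, Timp, Adamts, Adamtsl; y axis, CPM per kilobase of exon) by gestation stage (x axis) in WT and C1qtnf6-KO. Points are single libraries and the bars the mean and SD of 3 libraries. In the group means of both genotypes the Adamts sum is highest at gd10.5 and the Timp sum at gd19.5. The Adamts sum of KO gd10.5 replicate 2 (52.0) lies within the range of the later KO libraries.

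The first step, from gd10.5 to gd14.5, moved more members than the later steps together. DEGs were genes with a Benjamini-Hochberg adjusted p under 0.05 in edgeR's quasi-likelihood test and an absolute log2 fold change over 1. In WT, 24 of the 46 members tested (22.5% of all genes tested) were DEGs between gd10.5 and gd14.5, of which 9 rose (10.55% of all genes) and 15 fell (11.9%). The families differed in direction: of the Mmp genes 5 rose and 2 fell among 20 tested (median log2 fold change 0.53), and of the Adamts genes 2 rose and 9 fell among 17 (median -1.23). Of the 4 Timp genes 2 rose and 1 fell (median 1.33), and of the 5 Adamtsl genes 3 fell (median -1.14), against a median of -0.02 over all genes tested and -0.12 over all members. From gd14.5 to gd16.5, 7 members were DEGs (5.09% of all genes), 5 higher (2.78%) and 2 lower (2.32%), and from gd16.5 to gd19.5 there were 4 (1.49%), 3 higher (0.917%) and 1 lower (0.57%). Without WT gd10.5 replicate 1 the first count was 23, and without WT gd16.5 replicate 1 the counts of the later steps were 5 and 3.

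The KO libraries gave 20 DEGs among the members at the first step (20.1% of all genes tested), 7 higher (9.09%) and 13 lower (11%). The second step gave 11 (8.61%), 9 higher (5.36%) and 2 lower (3.25%), and the last step 4 (2.19%), 2 higher (0.736%) and 2 lower (1.45%). Of the 24 WT DEGs of the first step 19 were KO DEGs of the same direction (75.8% over all genes), which was 19 of the 20 KO DEGs (84.7%). At the second step 6 were shared, of 7 in WT (73.4%) and of 11 in KO (43.4%), and at the last 3 were shared, of 4 in WT (31%) and of 4 in KO (21.1%). The KO counts depended on single libraries: without KO gd10.5 replicate 2 the first was 24, with Adamts6, Adamts8, Adamts15 and Mmp24 added and none lost, and without KO gd16.5 replicate 1 or 2 the second was 8 or 7. With each library left out in turn, the first ran from 15 to 24 and the second from 7 to 12. Adjacent steps use the libraries of the stage between them and are not independent. A test over all stages called 37 of 46 members in WT (71.3% of all genes) and 33 of 46 in KO (71%), and the smallest adjusted p-values in WT belonged to Timp3 (2.19e-11), Mmp12 (2.09e-10) and Timp2 (3.49e-09). The 9 members not called in WT were Adamts8, Adamts9, Adamts12, Adamts13, Adamtsl5, Mmp7, Mmp13, Mmp16 and Mmp19. No member passed the test of the genotype-by-stage interaction (0 of 46 at an adjusted p under 0.05, 0% of all genes, with 2 at an unadjusted p under 0.05 against 7.23%), so a DEG in 1 genotype alone was not shown to differ between them.

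Marker genes of several cell types moved at the same first step in WT, and their part in the results of that step was not tested. All 8 natural killer (NK) cell markers fell, and their sum was 587 to 846 CPM at gd10.5 and 147 to 197 CPM at gd14.5. Of the 7 decidual stroma markers 4 fell and 1 rose, the sum being 5880.1 to 13288 and then 2669 to 2978 CPM. Spongiotrophoblast and glycogen cell markers had 5 that rose and 1 that fell among 7, with a sum of 1605 to 2218 and then 29847 to 32102 CPM. Labyrinth trophoblast markers had 4 that rose among 6 tested (397 to 573, then 859.5 to 964 CPM), and giant cell markers 2 that rose and 4 that fell among 7 (6146 to 8033, then 12701 to 13428 CPM). Smaller shares moved for macrophages (1 of 9 fell), neutrophils (1 rose and 2 fell of 7 tested), smooth muscle (2 rose and 1 fell of 7), mesothelium (1 rose and 2 fell of 6) and yolk sac endoderm (2 of 7 fell), and 0 of 7 endothelial markers were called, with 4 past the adjusted p alone. The 4 Y-linked genes were not called, and their sum ranged up to 0.254 CPM in WT at gd10.5 and up to 168 CPM at gd14.5. In bulk tissue, fewer cells of a type and less RNA per cell cannot be told apart.

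**Figure D2:**
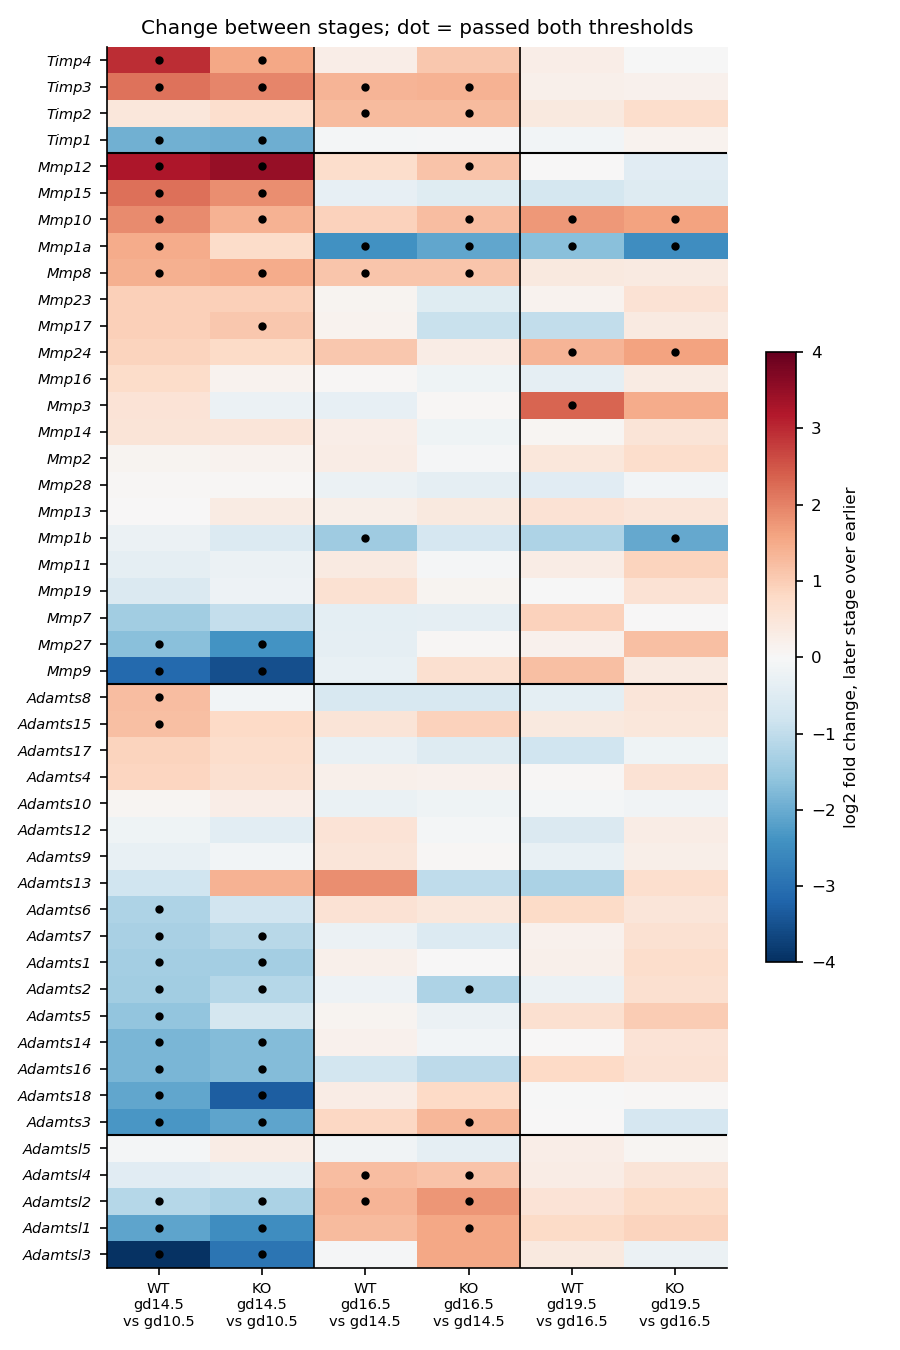
Log2 fold change (colour) of the 46 members tested (rows) over the 3 stage steps in WT and in C1qtnf6-KO (columns), from edgeR's fit of 24 libraries; a dot marks a DEG. Most dots stand in the first step, 24 in WT and 20 in KO.

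Among the inhibitors, and per kilobase in WT, Timp1 gave the largest share of the Timp RNA at gd10.5 and Timp2 at every later stage. Not divided by length, Timp2 was the higher of these genes at gd10.5 too, with WT means of 53.4 CPM against 18.2 CPM for Timp1. Timp1 (chrX:20870166-20874735, plus strand in GRCm38) encodes a secreted inhibitor that acts weakly on membrane-type Mmp enzymes. Its WT levels were 17.9, 21.3 and 15.3 CPM at gd10.5 and 4.42, 5.03 and 5.13 CPM at gd14.5, and the groups did not overlap. Timp1 fell 3.75-fold in WT at this step (log2 fold change -1.91, SE 0.243, adjusted p = 3.61e-06), and its later WT levels were 4.38 to 4.81 CPM at gd16.5 and 4.06 to 4.46 CPM at gd19.5. In KO, Timp1 was at 22.5, 8.68 and 22.5 CPM at gd10.5, the low value being the library rich in spongiotrophoblast markers, and at 5.25, 4.69 and 3.83 CPM at gd14.5 (log2 fold change -1.96, adjusted p = 3.45e-06, and without that library log2 fold change -2.29, adjusted p = 1.99e-10). Timp1 accounted for 57.1% ± 1.61 of the Timp sum per kilobase in WT at gd10.5 and for 5.54% ± 0.273 at gd19.5.

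Timp2 (chr11:118301069-118355740, minus strand) encodes the inhibitor that also joins Mmp14 and the Mmp2 precursor in the complex that activates Mmp2. Timp2 was at 54.3, 59.9 and 45.9 CPM in WT at gd10.5, 70.0, 84.5 and 67.0 on gd14.5, 171, 152 and 207 on gd16.5 and 214, 235 and 239 on gd19.5, so that no stage overlapped with the one before it. The step from gd14.5 to gd16.5 was a 2.39-fold rise in WT (log2 fold change 1.26, SE 0.167, adjusted p = 3.22e-05) and a 2.38-fold rise in KO (log2 fold change 1.25, SE 0.167, adjusted p = 2.94e-05). The first WT step passed the adjusted p alone (log2 fold change 0.47, SE 0.166, adjusted p = 0.0226). That result was lost without WT gd10.5 replicate 3 or WT gd14.5 replicate 2, left out singly (log2 fold change 0.37 to 0.37, adjusted p 0.0987 to 0.0989). Timp2 took 38.3% ± 0.530 of the Timp sum at gd10.5 and 68.9% ± 2.13 at gd19.5 in WT.

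Timp3 (chr10:86300372-86349506, plus strand) encodes the inhibitor that binds to the matrix itself and also blocks the Adamts proteoglycanases. Timp3 rose at each of the first 2 steps in WT, from 15.3, 11.0 and 12.9 CPM at gd10.5 to 45.1, 75.0 and 58.6 on gd14.5 and 131, 154 and 173 on gd16.5. These were rises of 4.55-fold (log2 fold change 2.19, SE 0.178, adjusted p = 4.67e-08) and 2.56-fold (log2 fold change 1.36, SE 0.168, adjusted p = 1.8e-05), and the groups did not overlap. At gd19.5 Timp3 was at 185, 179 and 162 CPM, overlapping the stage before (log2 fold change 0.20, SE 0.165, adjusted p = 0.536). The KO libraries gave rises of 3.87-fold and 2.60-fold at the same steps (adjusted p = 1.14e-07 and 1.17e-05). Of the exonic bases of Timp3, 1733 (21.3%) overlap those of Syn3 on the opposite strand, and reads were counted without regard to strand, so reads of these bases cannot be assigned.

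Timp4, an inhibitor best known from heart and brain, was near the limit of detection at gd10.5, with 0, 5 and 6 counts in the WT libraries. At gd14.5 it had 35, 40 and 22 counts, or 0.921, 1.10 and 0.925 CPM, a rise in WT (log2 fold change 2.95, SE 0.586, adjusted p = 0.000313). In KO the gd10.5 libraries had 4, 12 and 1 counts and the gd14.5 libraries 24, 11 and 23, and these groups overlapped in CPM (log2 fold change 1.55, adjusted p = 0.0282). The KO call was lost without KO gd10.5 replicate 1 or 3 or KO gd14.5 replicate 1 or 3, left out singly (log2 fold change 1.03 to 1.39, adjusted p 0.0836 to 0.138), and without KO gd10.5 replicate 2 it was kept (log2 fold change 2.73, adjusted p = 0.00152). A fit of the 6 libraries of that KO step alone also lost the call (log2 fold change 1.57, adjusted p = 0.141). At gd19.5 Timp4 reached 1.47, 1.46 and 1.38 CPM in WT, still the lowest of the 4 inhibitors per kilobase at 0.243 ± 0.00880 CPM per kilobase against 4.73 ± 0.258 for Timp1.

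**Figure D3:**
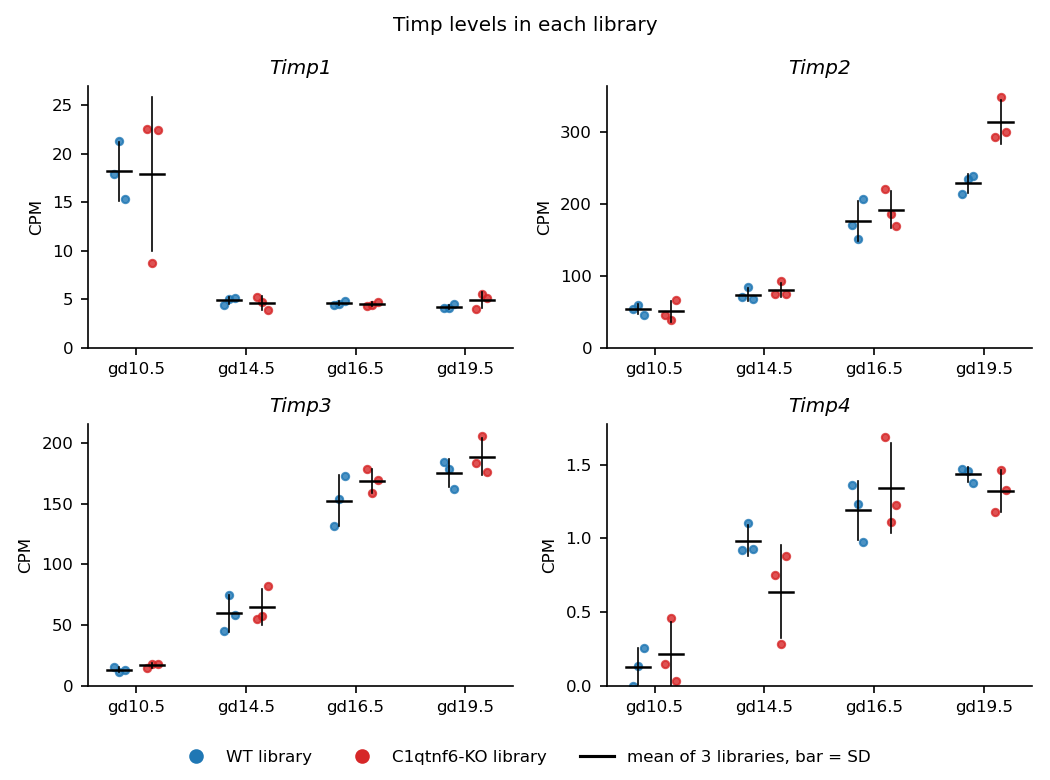
Levels of Timp1, Timp2, Timp3 and Timp4 (y axes, CPM) by gestation stage (x axes) in WT and C1qtnf6-KO. Points are single libraries and bars the mean and SD of 3. Timp1 is high at gd10.5 only, Timp2 climbs to gd19.5, and Timp3 climbs to gd16.5, with gd19.5 overlapping that stage.

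The secreted collagenases and stromelysins lie side by side on chromosome 9. Of the 51 members, 10 form this cluster in the order Mmp13, Mmp12, Mmp1b, Mmp3, Mmp1a, Mmp10, Mmp8, Mmp27, Mmp20 and Mmp7, between chr9:7272514 and chr9:7699585 in GRCm38 (427.1 kb), with Mmp1b alone on the minus strand. They encode collagenases (Mmp1a, Mmp8, Mmp13), stromelysins (Mmp3, Mmp10), macrophage elastase (Mmp12), matrilysin (Mmp7) and the enamel protease enamelysin (Mmp20). Mmp1b encodes a close paralog of Mmp1a. The sequences below are the 250 bases before the RefSeq transcription start (GRCm38.p6) of close paralogs in the cluster (Mmp1a and Mmp1b) and of the stromelysin pair (Mmp10 and Mmp3). They are shown because they carry the same elements, while the neighbours Mmp1a and Mmp10 had unlike time courses. Mmp10 and Mmp3 were both highest at gd19.5 in WT. Capitals mark an AP-1 motif (TGANTCA) and a TATA box (TATAAA), searched on both strands.
Mmp1a (chr9:7463891-7464140, plus strand): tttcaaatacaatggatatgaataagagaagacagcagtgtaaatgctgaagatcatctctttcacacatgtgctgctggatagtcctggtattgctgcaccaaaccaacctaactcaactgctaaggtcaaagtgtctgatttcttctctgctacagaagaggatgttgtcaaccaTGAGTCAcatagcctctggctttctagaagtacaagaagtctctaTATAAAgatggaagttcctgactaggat
Mmp1b (chr9:7388027-7388276, minus strand): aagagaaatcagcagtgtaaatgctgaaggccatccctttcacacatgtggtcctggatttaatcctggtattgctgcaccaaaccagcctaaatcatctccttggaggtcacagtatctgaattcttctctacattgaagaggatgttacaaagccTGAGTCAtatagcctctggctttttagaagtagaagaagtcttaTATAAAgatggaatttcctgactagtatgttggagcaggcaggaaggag
Mmp10 (chr9:7502092-7502341, plus strand): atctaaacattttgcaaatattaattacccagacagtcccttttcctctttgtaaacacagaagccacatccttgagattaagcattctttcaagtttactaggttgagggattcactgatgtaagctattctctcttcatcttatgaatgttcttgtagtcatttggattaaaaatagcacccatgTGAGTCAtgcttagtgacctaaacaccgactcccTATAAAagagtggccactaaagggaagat
Mmp3 (chr9:7445572-7445821, plus strand): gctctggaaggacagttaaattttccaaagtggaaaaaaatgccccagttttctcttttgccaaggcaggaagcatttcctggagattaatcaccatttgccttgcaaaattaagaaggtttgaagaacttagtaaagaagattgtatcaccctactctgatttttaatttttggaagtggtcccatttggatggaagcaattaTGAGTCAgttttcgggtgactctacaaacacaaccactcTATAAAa

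The AP-1 motif began 73 bases before the start in Mmp1a, 93 in Mmp1b, 63 in Mmp10 and 46 in Mmp3, and the TATA box 28, 49, 29 and 7 bases before it. The Mmp1b window includes 21 bases of annotated exon, so its start site in RefSeq lies inside the gene of the table. Mmp1a and Mmp1b agreed at 196 of 225 aligned positions of these windows (87.1%, with 50 gap columns), Mmp10 and Mmp3 at 149 of 211 (70.6%), and Mmp1a and Mmp10 at 137 of 224 (61.2%). RefSeq windows were found for 36 of the 51 members. The members without a window, among them Mmp2, Mmp9, Adamts4 and Adamts5, all lie outside the cluster and were not searched. AP-1 letters were in a window of 8 of the 10 cluster genes and in 0 of the 26 other members with a window, against 6.75% of all 32851 promoters. In Mmp12 they were only in a second window, whose start lies 2993 bases inside the gene of the table. In Mmp20 the letters were TGAATCA. The share of all promoters is per window, while a member with several windows was counted by gene. TATAAA was in 7 of the 10 and in 3 of the 26 (12.4% of all promoters), and the GC box GGGCGG in 0 of the 10 and in 20 of the 26 (32.7%). The PEA3 letters AGGAAG were in 6 of the 10 and 7 of the 26 (29.5%). A match of letters is a description of the sequence, not a site of binding, and the cluster genes are related by duplication, so their promoters are not independent of one another.

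Neighbours in the cluster followed different time courses. Mmp1a, an interstitial collagenase known from trophoblast, was at 15.2, 14.1 and 22.0 CPM in WT at gd10.5, 47.8, 45.9 and 50.7 on gd14.5, 7.06, 9.63 and 10.02 on gd16.5 and 2.59, 3.17 and 2.63 on gd19.5. No stage overlapped with the next, and gd14.5 was the peak. Mmp1a rose 2.82-fold (log2 fold change 1.50, SE 0.288, adjusted p = 0.000237), then fell 5.41-fold (log2 fold change -2.44, SE 0.303, adjusted p = 1.81e-05), and then fell 3.17-fold (log2 fold change -1.67, SE 0.330, adjusted p = 0.00803). The last call was lost without WT gd19.5 replicate 3 (log2 fold change -1.62, adjusted p = 0.0515). In KO the levels were 32.4, 17.7 and 12.4, then 39.7, 32.1 and 32.3, then 5.28, 6.81 and 12.6 and last 1.57, 1.09 and 1.77 CPM. The KO falls were of 4.22-fold (log2 fold change -2.08, SE 0.301, adjusted p = 7.06e-05) and 5.57-fold (log2 fold change -2.48, SE 0.354, adjusted p = 0.000872), while the first KO step overlapped and passed the adjusted p alone (log2 fold change 0.74, adjusted p = 0.0365). That result was lost without KO gd10.5 replicate 2 or 3 or KO gd14.5 replicate 1 or 2 or 3, left out singly (log2 fold change 0.47 to 0.79, adjusted p 0.0519 to 0.186). A fit of the 6 libraries of that KO step alone also lost it (log2 fold change 0.75, adjusted p = 0.114). At gd14.5 Mmp1a held 17.4% ± 1.59 of the Mmp sum per kilobase in WT.

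Mmp1b, the paralog of Mmp1a with a transcript 90.5% identical over the aligned part, was far lower. Its WT levels were 1.34, 1.05 and 2.11 CPM at gd10.5, 1.24, 0.967 and 1.64 on gd14.5 and 0.454, 0.619 and 0.340 on gd16.5. Mmp1b fell at the second step in WT (log2 fold change -1.41, SE 0.347, adjusted p = 0.00755) and, in KO, at the third (log2 fold change -2.06, SE 0.438, adjusted p = 0.0109). The KO call was lost without KO gd16.5 replicate 2 (log2 fold change -1.93, adjusted p = 0.0613). Reads that map equally well to both paralogs are left out at the default settings of featureCounts, so the levels of Mmp1a and Mmp1b may both be too low. In addition, 157 exonic bases of Mmp1b (10.8%) overlap Mmp12 on the other strand, so the level of Mmp1b is uncertain.

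Mmp12, the elastase of macrophages, had the largest rise of any member called at the first step in WT. It went from 2.48, 2.08 and 1.86 CPM at gd10.5 to 18.4, 24.1 and 18.1 at gd14.5, 9.41-fold (log2 fold change 3.23, SE 0.227, adjusted p = 1.28e-08), and the groups lay far apart. Mmp12 in KO rose from 1.53, 2.25 and 1.24 to 16.9, 17.4 and 21.5 CPM, 11.1-fold (log2 fold change 3.48, SE 0.235, adjusted p = 1.01e-08). From gd14.5 to gd16.5 the KO rise was a DEG (log2 fold change 1.14, SE 0.195, adjusted p = 0.000325), and the WT rise to 31.6, 39.1 and 27.2 CPM passed the adjusted p alone (log2 fold change 0.69, SE 0.194, adjusted p = 0.0172). That WT result was lost without WT gd14.5 replicate 1 or 3 or WT gd16.5 replicate 2, left out singly (log2 fold change 0.54 to 0.63, adjusted p 0.0789 to 0.0946). The summed macrophage markers in WT were 607 to 713 CPM at gd10.5 and 792 to 909 CPM at gd14.5, and their part in the Mmp12 result was not tested.

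Mmp10, a stromelysin, rose late as well as early. Its WT levels were 0.585, 0.702 and 0.550 CPM at gd10.5, 2.08, 2.15 and 2.78 on gd14.5, 4.50, 4.51 and 4.23 on gd16.5 and 10.2, 13.3 and 20.2 on gd19.5, each stage above the one before. The first step was a 3.73-fold rise (log2 fold change 1.90, SE 0.423, adjusted p = 0.000874) and the third a 3.29-fold rise (log2 fold change 1.72, SE 0.351, adjusted p = 0.00948). The third call was lost without WT gd16.5 replicate 3 or WT gd19.5 replicate 3, left out singly (log2 fold change 1.41 to 1.69, adjusted p 0.0568 to 0.072). In KO all 3 steps were calls (1.39, adjusted p = 0.00862, then 1.22, adjusted p = 0.0199, then 1.60, adjusted p = 0.0122, as log2 fold changes). The first was lost without KO gd10.5 replicate 1 (log2 fold change 1.00, adjusted p = 0.055) and in a fit of the 6 libraries of that step alone (log2 fold change 1.41, adjusted p = 0.0602). The second was lost without KO gd14.5 replicate 1 or 2 or KO gd16.5 replicate 1 or 2, left out singly (log2 fold change 1.04 to 1.25, adjusted p 0.0536 to 0.0907). The third was lost without KO gd19.5 replicate 2 (log2 fold change 1.25, adjusted p = 0.0995). Mmp3, the other stromelysin, had 3, 3 and 1 counts in WT at gd16.5, all at or under the detection limit, and 10, 17 and 14 counts at gd19.5 (adjusted p = 0.0204), a rise for which no fold is given. The call was lost without WT gd16.5 replicate 1 or 3 or WT gd19.5 replicate 2 or 3, left out singly (adjusted p 0.051 to 0.112). The transcripts of Mmp3 and Mmp10 are 81.9% identical over the aligned part.

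Mmp8, the collagenase of neutrophils, was low throughout. It had 10, 8 and 2 counts in WT at gd10.5, 35, 15 and 10 on gd14.5 and 33, 34 and 21 on gd16.5, and rose at both steps (log2 fold change 1.42, SE 0.432, adjusted p = 0.00924, then log2 fold change 1.11, SE 0.361, adjusted p = 0.0367). The first call was lost without WT gd14.5 replicate 1 (log2 fold change 0.91, adjusted p = 0.108). The second was lost without WT gd14.5 replicate 2 or 3 or WT gd16.5 replicate 1 or 2, left out singly (log2 fold change 0.90 to 1.08, adjusted p 0.0889 to 0.145). The summed neutrophil markers were 141 to 230.3 CPM at gd10.5, 98.3 to 102 on gd14.5 and 108 to 113 on gd16.5 in WT. Mmp27 fell between gd10.5 (20, 32 and 11 counts) and gd14.5 (12, 6 and 3 counts) in WT (log2 fold change -1.68, SE 0.508, adjusted p = 0.00895). Mmp13 and Mmp7 were not called at any step, with 0.373 to 2.50 CPM and 0.0486 to 0.968 CPM over the 24 libraries, and Mmp20 had at most 1 count in any library.

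**Figure D4:**
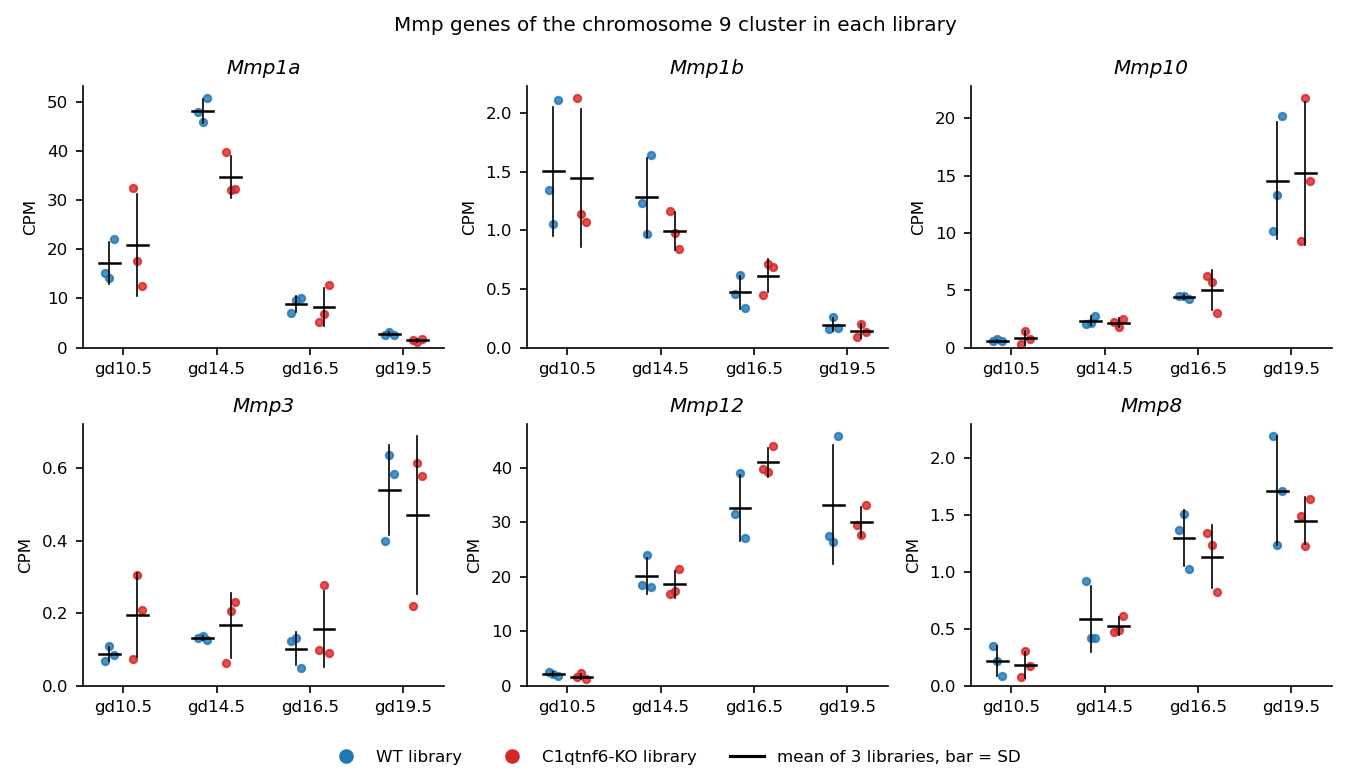
Levels of the chromosome 9 Mmp genes (y axes, CPM) by gestation stage (x axes) in WT and C1qtnf6-KO, with points for single libraries and bars for the mean and SD of 3. Mmp1a peaks at gd14.5, Mmp12 is low at gd10.5 only, and Mmp10 is highest at gd19.5.

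The gelatinases, which cut denatured collagen and basement membrane collagen, behaved unlike each other. Mmp9 (chr2:164940780-164955850, plus strand), secreted by early trophoblast giant cells and by leukocytes, was at 12.2, 7.74 and 17.8 CPM in WT at gd10.5 and at 1.03, 1.41 and 1.98 CPM at gd14.5. The groups did not overlap, and the fall was 8.66-fold (log2 fold change -3.11, SE 0.543, adjusted p = 9.01e-05). In KO Mmp9 was at 36.9, 3.43 and 13.4 CPM at gd10.5, the most scattered of its groups, and at 1.64, 1.60 and 1.45 CPM at gd14.5 (log2 fold change -3.51, SE 0.544, adjusted p = 3.21e-05). Without KO gd10.5 replicate 2 the KO fall was also a call (log2 fold change -3.999, adjusted p = 2.89e-08). At later stages Mmp9 was at 0.839 to 1.56 CPM and 2.59 to 2.83 CPM in WT, with no call. Mmp2 was at 23.1, 17.9 and 14.8 CPM in WT at gd10.5 and 17.8, 24.5 and 17.6 CPM at gd14.5, overlapping ranges with no call (log2 fold change 0.10, SE 0.291, adjusted p = 0.791). It reached 37.7, 31.5 and 32.1 CPM at gd19.5, and neither later step was called (adjusted p = 0.52 and 0.4).

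Among the enzymes anchored in the cell membrane, Mmp15 and Mmp14 were the most abundant. Mmp15 (chr8:95352268-95375080, plus strand), a membrane-type enzyme that acts together with Mmp14 in the placental labyrinth, went from 40.3, 50.5 and 82.5 CPM in WT at gd10.5 to 236, 289 and 265 CPM at gd14.5. This was a 4.56-fold rise (log2 fold change 2.19, SE 0.421, adjusted p = 0.000231), and the groups were far apart. Later WT levels were 187, 173 and 272 CPM at gd16.5 and 145, 136 and 109.6 CPM at gd19.5, with no call at either step (adjusted p = 0.632 and 0.35). In KO at gd10.5 Mmp15 was at 40.7, 158 and 29.1 CPM, the highest being the library rich in spongiotrophoblast markers, and at gd14.5 at 238, 261 and 323 CPM (log2 fold change 1.85, SE 0.416, adjusted p = 0.00104). Without that library the KO log2 fold change was 2.98, and in a fit of these 6 libraries alone the adjusted p was 0.051. Mmp15 held 35.4% ± 1.29 of the Mmp sum per kilobase at gd14.5 in WT and 21.5% ± 2.96 at gd19.5, where Mmp14 held 23.2% ± 1.31.

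Mmp14, the main activator of Mmp2, was at 85.7, 95.2 and 82.7 CPM in WT at gd10.5 and 119, 130.3 and 124 CPM at gd14.5, without overlap. The rise was 1.41-fold, past the adjusted p but not the fold threshold (log2 fold change 0.50, SE 0.149, adjusted p = 0.00818). At gd16.5 and gd19.5 it was at 132, 116 and 196 CPM and 168, 151 and 146 CPM, with no WT call.

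Mmp17, a membrane enzyme with a lipid anchor, was at 1.17, 1.40 and 2.33 CPM in WT at gd10.5, 3.58, 3.07 and 2.73 on gd14.5, 2.68, 3.45 and 4.18 on gd16.5 and 1.83, 1.60 and 1.79 on gd19.5. In KO the levels were 1.42, 2.40 and 1.14, then 2.93, 4.20 and 3.41, then 1.79, 1.69 and 2.19 and last 2.27, 2.76 and 2.25 CPM. Both genotypes were higher at gd14.5 than at gd10.5 without overlap, by 2.13-fold in KO (log2 fold change 1.09, SE 0.258, adjusted p = 0.00161) and 1.94-fold in WT, there short of the fold threshold (log2 fold change 0.96, SE 0.258, adjusted p = 0.0041). Later it passed the adjusted p alone, lower at the third step in WT (log2 fold change -0.98, SE 0.262, adjusted p = 0.0388) and at the second in KO (log2 fold change -0.90, SE 0.258, adjusted p = 0.0161). The WT result was lost without WT gd16.5 replicate 2 or 3 or WT gd19.5 replicate 1 or 2 or 3, left out singly (log2 fold change -1.01 to -0.81, adjusted p 0.0752 to 0.176). The KO result was lost without KO gd14.5 replicate 2 or KO gd16.5 replicate 1 or 2, left out singly (log2 fold change -0.86 to -0.75, adjusted p 0.0593 to 0.0852). Mmp24, best known from the nervous system, was at 0.330, 0.663 and 0.486 CPM in WT at gd16.5 and 1.55, 1.04 and 1.17 CPM at gd19.5 (log2 fold change 1.34, SE 0.382, adjusted p = 0.0487). The call was lost without WT gd16.5 replicate 1 or 2 or 3 or WT gd19.5 replicate 1 or 2 or 3, left out singly (log2 fold change 1.11 to 1.62, adjusted p 0.052 to 0.155). In KO Mmp24 rose from 0.448, 0.431 and 0.365 to 1.31, 1.50 and 1.02 CPM (log2 fold change 1.61, SE 0.384, adjusted p = 0.0195). The KO call was lost without KO gd16.5 replicate 2 or 3 or KO gd19.5 replicate 2, left out singly (log2 fold change 1.47 to 1.64, adjusted p 0.0569 to 0.101). Mmp24 shares 637 exonic bases (13.6%) with BC029722 on the opposite strand, and Mmp16 was not called at any step.

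None of Mmp11, Mmp28, Mmp23 and Mmp19 was a DEG at any step. Mmp11, the stromelysin of stromal cells, was the first of the family per kilobase at gd10.5, with 19.9% ± 1.67 of the Mmp sum in WT. It was at 44.7, 39.7 and 44.2 CPM at gd10.5 and 31.9, 36.1 and 31.1 CPM at gd14.5 (log2 fold change -0.37, SE 0.144, adjusted p = 0.0341). This result, past the adjusted p alone, was lost without WT gd10.5 replicate 1 or 3 or WT gd14.5 replicate 1 or 3, left out singly (log2 fold change -0.35 to -0.33, adjusted p 0.0788 to 0.104). In KO it passed the adjusted p at the third step, from 33.3, 33.6 and 31.3 to 53.1, 70.2 and 57.1 CPM (log2 fold change 0.88, SE 0.145, adjusted p = 0.00254). Mmp28, epilysin, was at 45.5, 46.4 and 54.9 CPM at gd10.5 and 44.7, 54.9 and 52.8 CPM at gd14.5 in WT and was not called at any step. Mmp23, which lacks the hemopexin domain of most Mmp proteins, went from 6.67, 7.88 and 5.58 to 12.7, 14.3 and 12.4 CPM in WT at the first step, just short of the fold threshold (log2 fold change 0.96, SE 0.164, adjusted p = 7.21e-05). Mmp19 was not called, and 789 of its exonic bases (22.3%) overlap Tmem198b on the opposite strand.

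The procollagen N-proteinases, which trim fibrillar procollagens so that fibrils can form, all fell between gd10.5 and gd14.5. Adamts2 was at 390.4, 430.1 and 372 CPM in WT at gd10.5 and 141, 164 and 145 CPM at gd14.5, a 2.65-fold fall without overlap (log2 fold change -1.41, SE 0.299, adjusted p = 0.000592). In KO it was at 458, 172 and 493 CPM and then 184, 190.4 and 129 CPM, with an overlap through KO gd10.5 replicate 2 (log2 fold change -1.15, SE 0.297, adjusted p = 0.00312, and without that library log2 fold change -1.50, adjusted p = 1.91e-05). The KO call was lost in a fit of these 6 libraries alone (adjusted p = 0.0597). A second fall, to 65.1, 67.7 and 79.7 CPM at gd16.5, was a DEG in KO (log2 fold change -1.25, SE 0.3001, adjusted p = 0.00535), while WT was at 97.6, 93.1 and 199 CPM at that stage and had no call (log2 fold change -0.21, SE 0.295, adjusted p = 0.677).

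Adamts3 had WT levels of 9.87, 10.1 and 9.26 CPM at gd10.5 and 1.68, 2.07 and 2.06 CPM at gd14.5, a 5.04-fold fall (log2 fold change -2.33, SE 0.381, adjusted p = 4.66e-05). Adamts14 went from 18.7, 19.6 and 17.0 to 5.13, 5.41 and 5.00 CPM in WT, a 3.56-fold fall (log2 fold change -1.83, SE 0.282, adjusted p = 2.53e-05). Both groups were free of overlap, and both genes fell in KO as well (log2 fold change -2.12, adjusted p = 0.000138 for Adamts3 and -1.72, adjusted p = 5.7e-05 for Adamts14). In KO, Adamts3 then rose from 1.98, 2.06 and 1.76 to 4.43, 4.80 and 5.33 CPM at gd16.5 (log2 fold change 1.32, SE 0.381, adjusted p = 0.0166), and WT was at 3.51, 2.30 and 4.62 CPM (log2 fold change 0.84, SE 0.387, adjusted p = 0.143). The KO call was lost without KO gd14.5 replicate 3 (log2 fold change 1.27, adjusted p = 0.0517). Adamts2 took 41.3% ± 4.43 of the Adamts sum per kilobase in WT at gd10.5 and 20.1% ± 1.69 at gd19.5, where Adamts1 was at 21.7% ± 1.07.

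The proteoglycanases, which cut versican, aggrecan and related proteins, split by direction. Adamts1, needed for normal ovulation and fertility in mice, fell in WT from 143, 138 and 109 CPM at gd10.5 to 53.6, 49.9 and 49.6 CPM at gd14.5, 2.55-fold (log2 fold change -1.35, SE 0.244, adjusted p = 0.000128). The groups did not overlap in WT, and the KO fall was 2.57-fold (log2 fold change -1.36, SE 0.244, adjusted p = 0.000139) with 143, 64.5 and 181 CPM at gd10.5, and without KO gd10.5 replicate 2 it was also a call (log2 fold change -1.68, adjusted p = 6.77e-08). Adamts5, which lies next to Adamts1 on chromosome 16 with a gap of 53060 bases, was at 266, 129 and 117 CPM in WT at gd10.5 and 50.7, 62.8 and 56.8 CPM at gd14.5 (log2 fold change -1.58, SE 0.494, adjusted p = 0.0107). The call was lost without WT gd10.5 replicate 1 (log2 fold change -1.11, adjusted p = 0.079), and this library is the one with the yolk sac markers. In KO, Adamts5 was at 35.8, 45.8 and 264 CPM at gd10.5 and 64.2, 84.6 and 65.6 CPM at gd14.5, overlapping ranges with no call (log2 fold change -0.69, SE 0.485, adjusted p = 0.246, and without KO gd10.5 replicate 2 log2 fold change -1.07, adjusted p = 0.0571). Yolk sac endoderm markers summed to 2499, 1302 and 4083 CPM in these KO gd10.5 libraries. Decidual stroma markers summed to 3474, 2271 and 11131 CPM in the same KO libraries and to 13288, 8529.9 and 5880.1 CPM in WT at gd10.5. The part of yolk sac and decidual stroma RNA in the Adamts5 values was not tested.

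Adamts4 went the other way, from 16.2, 16.3 and 23.5 CPM at gd10.5 to 29.9, 37.9 and 32.4 CPM at gd14.5 in WT, past the adjusted p but not the fold threshold (log2 fold change 0.84, SE 0.235, adjusted p = 0.00503). The groups did not overlap, and later WT levels were 33.2, 28.6 and 54.4 and 39.6, 38.3 and 41.3 CPM. Adamts15 rose in WT from 15.6, 16.0 and 20.8 to 29.8, 45.2 and 44.7 CPM, 2.29-fold (log2 fold change 1.19, SE 0.354, adjusted p = 0.00771), and reached 74.5, 81.5 and 68.0 CPM at gd19.5. Its neighbour on chromosome 9, Adamts8, 20110 bases away, was much lower, at 0.344, 0.702 and 1.10 CPM and then 1.60, 1.63 and 1.81 CPM in WT (log2 fold change 1.25, SE 0.458, adjusted p = 0.0272). The Adamts8 call was lost without WT gd10.5 replicate 1 or 2 or WT gd14.5 replicate 3, left out singly (log2 fold change 0.92 to 1.25, adjusted p 0.0601 to 0.124). In KO, Adamts15 was at 12.6, 43.6 and 9.89 CPM at gd10.5 and 38.9, 34.5 and 40.2 CPM at gd14.5 and was not called (log2 fold change 0.78, SE 0.350, adjusted p = 0.0676), and Adamts8 was at 0.672, 3.24 and 0.692 CPM and 1.70, 1.31 and 1.19 CPM (log2 fold change -0.12, SE 0.435, adjusted p = 0.836). Both genes were highest at gd10.5 in KO gd10.5 replicate 2, the library rich in spongiotrophoblast markers. Without that library Adamts15 was called in KO as well (log2 fold change 1.75, adjusted p = 1.18e-06), and the KO change of Adamts8 had the opposite sign (log2 fold change 1.04, adjusted p = 0.0108). Adamts9 stayed at 40.2 to 89.6 CPM over the 24 libraries, with no call at any step.

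Of the other Adamts genes, Adamts6, Adamts7, Adamts16 and Adamts18 fell at the first step in WT. Adamts16 was at 2.06, 4.40 and 1.99 CPM and then 1.08, 0.746 and 0.505 CPM (log2 fold change -1.84, SE 0.360, adjusted p = 0.000279). Adamts18 was at 1.62, 0.540 and 0.507 CPM and then 0.158, 0.221 and 0.252 CPM (log2 fold change -2.08, SE 0.591, adjusted p = 0.00581). The Adamts18 call was lost without WT gd10.5 replicate 1 (log2 fold change -1.33, adjusted p = 0.0767). Adamts7, a protease that cuts cartilage oligomeric matrix protein, fell 2.48-fold (adjusted p = 0.000519) and Adamts6 2.34-fold (adjusted p = 0.00224). Adamts17 passed the adjusted p alone, in the other direction (log2 fold change 0.88, SE 0.283, adjusted p = 0.013), and Adamts10, Adamts12 and Adamts13 were not called at any WT step.

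The Adamts-like genes, whose products bind fibrillin and other matrix proteins, had 3 of 5 members that fell at the first step and 2 that rose at the second in WT. Adamtsl1 was at 5.71, 4.88 and 4.82 CPM in WT at gd10.5, 1.26, 1.24 and 1.05 on gd14.5, 3.39, 2.52 and 2.77 on gd16.5 and 5.77, 4.85 and 4.29 on gd19.5. It fell 4.30-fold at the first step (log2 fold change -2.10, SE 0.515, adjusted p = 0.00192), and the second step, higher in all 3 libraries, was not called in WT (log2 fold change 1.28, SE 0.525, adjusted p = 0.1). The second step was a DEG in KO (log2 fold change 1.55, SE 0.530, adjusted p = 0.0393). The KO call was lost without KO gd14.5 replicate 1 or 2 or 3 or KO gd16.5 replicate 1 or 2, left out singly (log2 fold change 1.28 to 1.74, adjusted p 0.066 to 0.144). Adamtsl3 had 60, 40 and 31 counts in WT at gd10.5 and 4, 4 and 1 at gd14.5, a fall to near the limit of detection (adjusted p = 0.000167), for which no fold is given. Adamtsl4 rose from 2.66, 2.82 and 2.44 CPM at gd14.5 to 6.77, 5.48 and 6.61 CPM at gd16.5 in WT, 2.38-fold (log2 fold change 1.25, SE 0.255, adjusted p = 0.00188), and 2.18-fold in KO (log2 fold change 1.13, SE 0.252, adjusted p = 0.00318).

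Adamtsl2 was at 0.481, 0.809 and 1.35 CPM in WT at gd10.5, 0.342, 0.414 and 0.421 on gd14.5 and 1.12, 0.928 and 0.973 on gd16.5. It fell at the first step (log2 fold change -1.14, SE 0.427, adjusted p = 0.0293) and rose at the second (log2 fold change 1.36, SE 0.430, adjusted p = 0.033). The fall was lost without WT gd10.5 replicate 3 or WT gd14.5 replicate 1 or 2 or 3, left out singly (log2 fold change -1.19 to -0.74, adjusted p 0.0525 to 0.176). The rise was lost without WT gd14.5 replicate 1 or 2 or 3 or WT gd16.5 replicate 1 or 2 or 3, left out singly (log2 fold change 1.26 to 1.42, adjusted p 0.0594 to 0.119). The KO rise was steadier, from 0.409, 0.335 and 0.344 to 1.34, 1.54 and 0.821 CPM (log2 fold change 1.77, SE 0.424, adjusted p = 0.00521). Adamtsl5 did not pass the test of any WT step.

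Genes that activate or inhibit these proteases moved mostly at the first step, which had the most DEGs over all genes as well. Of 20 activators and inhibitors 18 were tested in WT, and 6 rose (Bsg, Lrp1, Plat, Serpine2, Spock1, Tfpi2) and 3 fell (A2m, Papln, Plg) from gd10.5 to gd14.5, with a median log2 fold change of 0.32. Over all genes tested 10.55% rose and 11.9% fell at this step. At the next step 2 fell (A2m and Plat, against 2.32% of all genes) and at the last none was called (1.49% of all genes were DEGs). A2m, a plasma protein that traps proteases of all classes, fell from 10558 ± 1386 CPM to 1529.6 ± 128 CPM (log2 fold change -2.79, SE 0.380, adjusted p = 7.39e-06) and fell again to 627 ± 319 CPM (log2 fold change -1.29, SE 0.362, adjusted p = 0.0176). Plat, which turns plasminogen into plasmin, rose from 46.1 ± 12.1 to 132 ± 18.8 CPM (log2 fold change 1.52, SE 0.327, adjusted p = 0.000653) and fell back to 60.9 ± 10.9 CPM (log2 fold change -1.12, SE 0.324, adjusted p = 0.0208). Tfpi2, an inhibitor of serine proteases made by trophoblast, rose from 281 ± 136 to 1027 ± 182 CPM (log2 fold change 1.87, SE 0.364, adjusted p = 0.000263). Spock1, a proteoglycan of the testican family, rose from 1.37 ± 0.734 to 5.78 ± 1.74 CPM (log2 fold change 2.07, SE 0.349, adjusted p = 6.18e-05). Plg, plasminogen, was at 7.17 ± 12.3 and then 0.418 ± 0.523 CPM (log2 fold change -4.02, SE 1.53, adjusted p = 0.032), and its SD at gd10.5 exceeded its mean.

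Among the matrix substrates, Eln, Fbln1, Fn1 and Lum rose and Fbn1 and Vwf fell at the first step in WT. At the second step Eln and Vcan rose, and none of these genes was called at the last. Over all genes tested, 22.5%, 5.09% and 1.49% were DEGs at the successive WT steps. Fbln1, a matrix glycoprotein and cofactor of Adamts1, rose from 21.8 ± 3.20 to 229.9 ± 54.8 CPM (log2 fold change 3.40, SE 0.268, adjusted p = 3.53e-08). Lum, a small proteoglycan of collagen fibrils, rose from 49.9 ± 21.8 to 517 ± 27.4 CPM (log2 fold change 3.37, SE 0.399, adjusted p = 1.73e-06). Eln, elastin, a substrate of Mmp12, rose from 1.07 ± 0.0430 to 8.995 ± 2.47 CPM (log2 fold change 3.06, SE 0.342, adjusted p = 9.63e-07) and then to 30.1 ± 4.98 CPM (log2 fold change 1.74, SE 0.279, adjusted p = 0.000219). Fbn1, the fibrillin that Adamts-like proteins bind, fell from 236 ± 18.7 to 37.6 ± 4.48 CPM (log2 fold change -2.65, SE 0.332, adjusted p = 3.1e-06). Vcan, versican, the main substrate of the proteoglycanases, rose at the second step from 11.3 ± 1.42 to 25.7 ± 4.45 CPM (log2 fold change 1.18, SE 0.338, adjusted p = 0.0192). None of the activators, inhibitors and substrates named here was a DEG between KO and WT at any stage.

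The comparison of KO with WT at each stage asked whether the loss of CTRP6 goes with a change in these genes. No member passed the test at any stage. At gd10.5, 0 of 42 members tested had an adjusted p under 0.05 in edgeR (0.00572% of all genes), at gd14.5 0 of 40 (0.0166%), on gd16.5 0 of 40 (0.00586%) and on gd19.5 0 of 41 (0.115%). At an unadjusted p under 0.05 the counts were 0 (0.801% of all genes), 3 (6.78%), 8 (11.1%) and 8 (13.5%). The KO and WT libraries did not overlap for 0 members at gd10.5 (4.18% of all genes), 4 on gd14.5 (12.5%), 9 on gd16.5 (17.7%) and 7 on gd19.5 (21.4%). By direction these were 0 higher (1.83%) and 0 lower (2.35%) at gd10.5, then 2 higher (6.42%) and 2 lower (6.1%), then 2 higher (8.11%) and 7 lower (9.62%), and last 5 higher (12.8%) and 2 lower (8.55%). The mean KO effect over the 4 stages had 0 of 46 members at an adjusted p under 0.05 (0.0104%) and 3 at an unadjusted p under 0.05 (6.81%), namely Mmp7, Mmp23 and Timp3. DESeq2 called 0 of 50 members at gd10.5 (0.00603%) and 1 each at gd14.5, gd16.5 and gd19.5 (Mmp1a, Adamts2 and Timp2), out of 40, 31 and 37 members with an adjusted p, against 0.125%, 1.22% and 1.29% of all genes. Without the expression filter edgeR called 0 of 50 members at gd10.5 (0.00301% of all genes), 3 of 51 on gd14.5 (0.709%), 1 of 51 on gd16.5 (0.34%) and 7 of 51 on gd19.5 (1.98%) at an adjusted p under 0.05, of which Adamts13 on gd14.5 alone passed the fold threshold.

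Among the members, only Mmp1a lay below WT without overlap at 2 stages, and only Adamtsl4 above WT at 2. Over all genes, 6.1% lay below WT without overlap at gd14.5 and 8.55% at gd19.5, and 6.42% and 12.8% lay above. The share of all genes on the same side at 2 stages was not counted, so neither gene is shown to be unusual. At gd14.5 the WT libraries had Mmp1a at 47.8, 45.9 and 50.7 CPM and the KO libraries at 39.7, 32.1 and 32.3 CPM, all lower (log2 fold change -0.48, SE 0.0882, adjusted p = 0.452). At gd19.5 the values were 2.59, 3.17 and 2.63 CPM in WT and 1.57, 1.09 and 1.77 CPM in KO, again without overlap (log2 fold change -0.95, SE 0.205, adjusted p = 0.131). The adjusted p at gd14.5 ran from 6.33e-07 to 1.00 over the alternatives, the lowest being that without the expression filter, and DESeq2 gave 0.00508 with a log2 fold change of -0.47. For gd19.5 the adjusted p ran from 0.000653 to 0.572, again lowest without the filter. At gd10.5 and gd16.5 the Mmp1a ranges of the genotypes overlapped, with 32.4, 17.7 and 12.4 CPM and 5.28, 6.81 and 12.6 CPM in KO. Adamtsl4 was at 2.66, 2.82 and 2.44 CPM in WT and 3.30, 3.12 and 2.87 CPM in KO at gd14.5 (log2 fold change 0.22, SE 0.136, adjusted p = 0.787), and at 8.04, 7.17 and 7.75 CPM in WT and 8.12, 11.9 and 9.12 CPM in KO at gd19.5 (log2 fold change 0.32, SE 0.148, adjusted p = 0.38).

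Timp2 at gd19.5 had the smallest p-value of any member at that stage. Its libraries were at 214, 235 and 239 CPM in WT and 294, 349 and 300.3 CPM in KO, all KO libraries higher (log2 fold change 0.43, SE 0.0872, adjusted p = 0.118). DESeq2 gave an adjusted p of 0.000662 with a log2 fold change of 0.44, the test with the replicate number as a block gave 0.0443, and the range over the alternatives was 2.88e-05 to 0.53, lowest without the expression filter. The Timp sum per kilobase at gd19.5 was 82.5, 87.0 and 86.5 in WT and 103, 121 and 105 in KO. Adamts15 at gd19.5 was at 74.5, 81.5 and 68.0 CPM in WT and 113, 86.6 and 92.2 CPM in KO (log2 fold change 0.35, SE 0.1002, adjusted p = 0.203), with an adjusted p of 0.00107 to 0.823 over the alternatives, also lowest without the filter. Adamtsl5 was at 25.2, 22.8 and 22.5 CPM in WT and 20.5, 20.1 and 19.0 CPM in KO (log2 fold change -0.27, SE 0.0760, adjusted p = 0.203), and its adjusted p ran from 0.153 to 0.815. The KO libraries were on one side of WT in both genes. At this stage the macrophage markers summed to 909 to 985 CPM in WT and 1076 to 1089 CPM in KO, those of mesothelium to 401 to 469 and 474 to 497 CPM, and those of decidual stroma to 2705 to 3945 and 2165 to 2509 CPM. None of these 3 sums overlapped between the genotypes, and their part in the gd19.5 values was not tested.

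At gd16.5 the smallest p-values belonged to Mmp9, Adamts12, Mmp17 and Mmp23. Mmp9 was at 1.16, 0.839 and 1.56 CPM in WT and 2.49, 2.25 and 2.55 CPM in KO, higher in all KO libraries (log2 fold change 1.05, SE 0.246, adjusted p = 0.363). Adamts12 was at 6.73, 7.33 and 7.98 CPM in WT and 4.33, 4.47 and 5.61 CPM in KO (log2 fold change -0.60, SE 0.150, adjusted p = 0.376). Mmp17 was at 2.68, 3.45 and 4.18 CPM in WT and 1.79, 1.69 and 2.19 CPM in KO (log2 fold change -0.85, SE 0.217, adjusted p = 0.376). The last 2 genes were lower in all KO libraries, as was Mmp23 with 12.6, 11.4 and 18.5 CPM in WT and 9.71, 9.30 and 9.12 CPM in KO (log2 fold change -0.58, SE 0.183, adjusted p = 0.421). Adamts2 was at 97.6, 93.1 and 199 CPM in WT, where replicate 3 was high, and 65.1, 67.7 and 79.7 CPM in KO (log2 fold change -0.86, SE 0.281, adjusted p = 0.421), and DESeq2 gave an adjusted p of 0.042. The adjusted p ran from 0.12 to 0.796 for Mmp9, 0.0999 to 0.796 for Adamts12, 0.124 to 0.815 for Mmp17 and 0.134 to 0.88 for Mmp23 over the alternatives. At this stage the summed spongiotrophoblast and glycogen cell markers were 28107 to 39634 CPM in WT and 47765 to 52028 CPM in KO, and those of smooth muscle 616 to 845 and 483 to 589 CPM. Trophoblast giant cell markers summed to 16736 to 23898 CPM in WT and 25120.4 to 29298 CPM in KO, and labyrinth trophoblast markers to 741 to 879 and 511 to 737 CPM. The part of these cell types in the gd16.5 values was not tested.

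The other members with the smallest p-values at gd14.5 were Adamts13, Adamts5 and Timp4. Adamts13, the protease of von Willebrand factor, was at 0.158, 0.193 and 0.463 CPM in WT and 0.975, 1.60 and 0.268 CPM in KO, with an overlap (log2 fold change 1.98, SE 0.597, adjusted p = 0.648). Its adjusted p over the alternatives ran from 3.26e-06 to 1.00, the lowest being that without the expression filter. Adamts5 was at 50.7, 62.8 and 56.8 CPM in WT and 64.2, 84.6 and 65.6 CPM in KO, higher in all KO libraries (log2 fold change 0.33, SE 0.110, adjusted p = 0.693, range over the alternatives 0.00167 to 1.00, lowest without the filter). Timp4 was at 0.921, 1.10 and 0.925 CPM in WT and 0.755, 0.283 and 0.880 CPM in KO, lower in all KO libraries (log2 fold change -0.69, SE 0.352, adjusted p = 0.752, range 0.454 to 1.00). At gd14.5 labyrinth trophoblast markers summed to 859.5 to 964 CPM in WT and 777 to 829 CPM in KO, and yolk sac endoderm markers to 143 to 223 and 112 to 129 CPM, both without overlap, and their part in the gd14.5 values was not tested.

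At gd10.5 the smallest p-values were those of Timp3, Adamtsl3, Adamts8 and Mmp7, and all 4 overlapped between genotypes. Timp3 was at 15.3, 11.0 and 12.9 CPM in WT and 14.4, 17.6 and 18.2 CPM in KO (log2 fold change 0.36, SE 0.171, adjusted p = 1.00). Adamtsl3 was at 2.06, 1.08 and 1.31 CPM in WT and 0.709, 0.0761 and 1.14 CPM in KO (log2 fold change -1.19, SE 0.724, adjusted p = 1.00). Adamts8 was at 0.344, 0.702 and 1.10 CPM in WT and 0.672, 3.24 and 0.692 CPM in KO (log2 fold change 1.11, SE 0.738, adjusted p = 1.00), and without KO gd10.5 replicate 2 its log2 fold change was -0.04. Mmp7 had 5, 22 and 7 counts in WT and 16, 8 and 28 in KO (log2 fold change 0.79, SE 0.577, adjusted p = 1.00). The adjusted p ran from 0.938 to 1.00 for Timp3 over the alternatives.

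**Figure D5:**
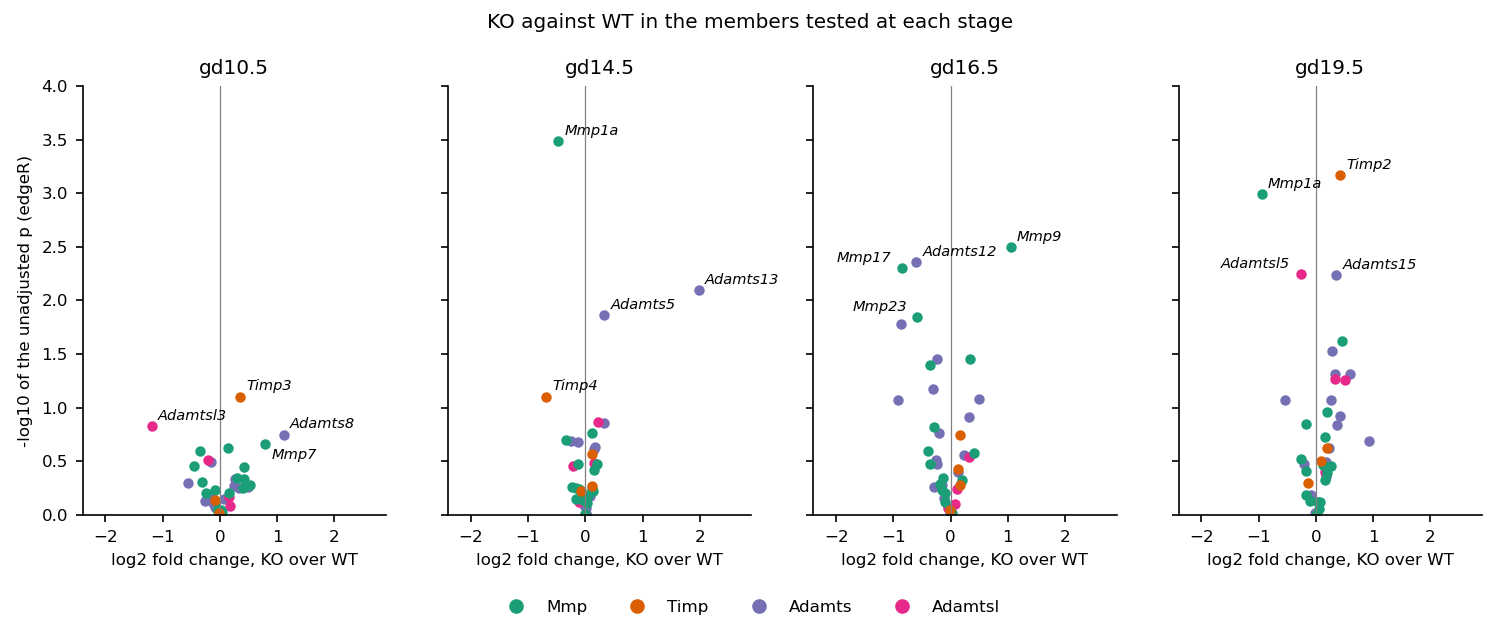
KO against WT at each stage: log2 fold change (x axis) and −log10 of the unadjusted p (y axis) of each member tested, from edgeR, with the 4 smallest p-values of each stage named. No point passes an adjusted p under 0.05; Mmp1a at gd14.5 and Timp2 and Mmp1a at gd19.5 stand highest.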

How the data were processed

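Poly(A) RNA of 24 MFI libraries was sequenced by the authors as stranded paired-end reads, trimmed with Trim Galore 0.6.4, aligned to GRCm38 with STAR 2.7.3a and counted per gene with featureCounts (Subread 2.0.0) at default settings, which ignore strand. The deposited table holds these raw read counts per gene with gene lengths and positions, and every sample's column was matched to its labels. Library totals were 20975717 to 37383108 counts, which limits precision mainly for members with few counts, and a count of 3 was treated as the detection limit.

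From the counts, edgeR 4.0.16 (R 4.3.3) was used with filterByExpr (minimum count 10, minimum total 15), TMM normalisation and quasi-likelihood tests, with Benjamini-Hochberg adjustment over all genes tested. KO was compared with WT on the 6 libraries of each stage. Stage steps, the test over all stages, the mean KO effect and the genotype-by-stage interaction were fitted on all 24 libraries. Genes past an adjusted p of 0.05 whose log2 fold change exceeded 1 in size were called DEGs. Levels are CPM with TMM scaling, divided by gene length in kilobases where genes are compared. Promoter windows (250 bases before the start) came from RefSeq, GRCm38.p6. The code was tested on simulated counts.

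The members, gene lists, markers and tests were chosen with earlier results of these data known. Values were given for Timp1 to Timp4, Mmp2, Mmp9, Mmp14, Adamts1, Adamts4 and Adamts5, the 8 members with the highest mean level per length, up to 8 DEGs higher and 8 lower per WT step, the 4 smallest p-values of each KO comparison, the chromosome 9 cluster and up to 4 DEGs per WT step of each gene list. Mmp17, Mmp23, Adamts6, Adamts7, Adamts17, Adamtsl4 and some KO values were added after their values were seen. One gene of the list of matrix substrates is not reported here.

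Alternatives were DESeq2 1.42.0, its size factors, no expression filter, the other set of libraries (6 or 24), Y-linked expression as a covariate, the replicate number as a block, no fold threshold and each replicate left out in turn. Replicate numbers were taken from the sample descriptions.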

Additional observations from a re-analysis of the deposited data

Results flagged for a closer look

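Mmp17, the lipid-anchored membrane enzyme, was flagged because the KO libraries lay on opposite sides of WT at adjacent stages. Over all genes, 9.62% lay below WT without overlap at gd16.5 and 12.8% above it at gd19.5. The share of all genes that did both was not counted, so Mmp17 is not shown to be unusual. At gd16.5 every KO library was below every WT library (log2 fold change -0.85), and at gd19.5 every KO library was above every WT library (log2 fold change 0.45). Neither difference passed edgeR's quasi-likelihood test after Benjamini-Hochberg adjustment. A test of the genotype-by-stage interaction across the 4 stages gave Mmp17 an adjusted p of 0.604, while the opposite sides at these 2 stages alone were not tested.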

How the results depend on the processing

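Of the counts of members called, 204 under the alternatives lay within 1.5 times the main count and 9 did not. Of the log2 fold changes of single members, 1147 kept their direction and their side of the threshold, 121 lost it, 11 gained it and 3 changed sign, while all 320 group levels moved by less than the spread between replicates under DESeq2's size factors, whose largest median shift over all genes was 0.00918 (log2). Without the expression filter, KO against WT at gd14.5 gave 1 DEG (Adamts13) in place of 0. In a fit of the 6 libraries of the groups alone, gd14.5 against gd10.5 in KO gave 11 DEGs in place of 20, and without a fold threshold gd19.5 against gd16.5 in KO gave 8 in place of 4. Adamts8 in KO against WT at gd10.5 changed from a log2 fold change of 1.11 to -0.077 with Y-linked expression as a covariate and to -0.038 without KO gd10.5 replicate 2, and its KO step from gd10.5 to gd14.5 changed from -0.12 to 1.04 without that library (-0.48 to 1.04 over the replicates left out). The cause of these changes was not tested.

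With each replicate left out in turn, KO against WT gave 0 to 0 DEGs at every stage and 0 to 0 calls for the mean effect and the interaction. The WT steps gave 22 to 25, 5 to 6 and 0 to 3 DEGs (24, 7 and 4 with all), the KO steps 15 to 24, 7 to 12 and 2 to 5 (20, 11 and 4 with all), and the test over stages 35 to 37 in WT and 31 to 36 in KO (37 and 33 with all). The third WT step gave 1 DEG without WT gd16.5 replicate 3, 2 without WT gd19.5 replicate 2 and 0 without WT gd19.5 replicate 3. The second KO step gave 7 without KO gd16.5 replicate 2, and the third gave 2 without that library and 2 without KO gd19.5 replicate 2.

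The replicate number as a block gave 0 DEGs for KO against WT at each stage, 24, 7 and 3 for the WT steps, 20, 11 and 5 for the KO steps, and 36 (WT) and 31 (KO) members over all stages, with 0 for the mean effect and 0 for the interaction. The deviations of same-numbered KO and WT libraries from their group means correlated at -0.455 to 0.406, so the numbers were not read as pairing the libraries, and a sample did not always correlate best with its own number. Depth limits the members with few counts: Adamts19, Adamts20, Mmp20, Mmp21 and Mmp25 passed the expression filter in no comparison. Timp4, Mmp1b, Mmp3, Mmp7, Mmp8, Mmp24, Mmp27, Adamts18 and Adamtsl3 did not pass it in all of them or had few counts.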
